A study of Rattus norvegicus with 63 samples.

Results

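Slc25a25 encodes a carrier of the mitochondrial inner membrane, and its transcript was followed here in rat kidney before and after methylprednisolone, a synthetic glucocorticoid. The gene was chosen by its signals on the main array at the times from 0.25 to 72 h against 0 h, since they rose early and stayed high for hours, so its own levels and differences are a description and carry no test. Affymetrix arrays measure a transcript with a probe set, a group of short probes. All probe sets annotated to Slc25a25 were taken: 1 of the 15923 probe sets of the main array, 1371754_at, and 0 of the 8799 of the second array. The main array held 52 libraries of total RNA, 4 at 0 h and 3 at each of 16 times from 0.25 to 72 h, and the second held 4 at 0 h and 3 each at 2 and 6 h. The 0 h rats are labelled as having had no treatment, and all other rats as killed at the stated time after methylprednisolone. The labels give no dose, strain, sex, age or hour of day, and no vehicle group at the later times was analysed here, so elapsed time, handling and drug cannot be told apart. Nor do they state whether each numbered sample is a rat of its own: p-values therefore describe the spread among samples, part or all of which may be technical.

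The product of Slc25a25 is one of the short calcium-binding mitochondrial carriers. These proteins exchange ATP-Mg for phosphate across the inner membrane and so change the size of the adenine nucleotide pool in the matrix. They carry calcium-binding EF hands on the side of the intermembrane space, and calcium in the cytosol activates transport. They differ from the ADP/ATP carriers Slc25a4 and Slc25a5, which swap ADP for ATP one for one and leave the total unchanged. Glucocorticoids act through the glucocorticoid receptor, a transcription factor of tubule and other kidney cells that binds DNA directly or works with other factors at a promoter.

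Promoter windows from RefSeq (build GRCr8, 250 bases before to 50 after the start) are shown for Slc25a25 and for Dusp1, a phosphatase that switches off MAP kinases. Dusp1 was picked after the motif search, because among the 10 genes whose time course was most like that of Slc25a25 it alone shares the letters TGACGTCA; the 6 that are more alike lack them. Capitals mark the letters TGACGTCA, the full site of cAMP response element binding factors, its shorter form TGACG, and CCAAT, read as ATTGG on the other strand.
Slc25a25: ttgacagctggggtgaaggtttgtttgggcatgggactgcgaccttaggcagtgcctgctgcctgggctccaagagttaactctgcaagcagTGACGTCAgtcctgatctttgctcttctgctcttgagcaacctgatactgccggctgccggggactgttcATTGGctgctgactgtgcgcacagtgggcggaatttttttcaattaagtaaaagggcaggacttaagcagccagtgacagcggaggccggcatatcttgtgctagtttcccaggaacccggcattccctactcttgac
Dusp1: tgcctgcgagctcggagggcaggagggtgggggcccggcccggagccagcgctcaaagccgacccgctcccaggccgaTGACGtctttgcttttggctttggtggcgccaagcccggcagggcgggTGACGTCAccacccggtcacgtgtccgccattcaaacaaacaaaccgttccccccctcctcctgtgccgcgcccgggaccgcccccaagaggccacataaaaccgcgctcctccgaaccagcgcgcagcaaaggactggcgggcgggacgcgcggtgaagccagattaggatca
The window of Slc25a25 is chr3:36116532-36116831 on the minus strand, and that of Dusp1 is chr10:17184603-17184902 on the plus strand. Slc25a25 holds TGACGTCA from base -158 to base -151, counted from the start, and Dusp1 holds it from -124 to -117. Of the 27457 promoter windows of the table, 525 (1.91%) hold TGACGTCA on either strand, and 22.0% hold TGACG, which lies within TGACGTCA. A CCAAT box stands in the Slc25a25 window from -88 to -84 on the other strand, and 37.7% of all windows hold one. The glucocorticoid response element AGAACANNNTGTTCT was in neither window and in 2 of all windows (0.0073%), and its shorter form AGAACA, in 20.1% of all windows, was in neither of the pair. A match of letters is a description of this window alone, and binding was not measured.

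Slc25a25 was low and uneven in untreated kidney. Its signal, an intensity scaled per array, was 167, 63.3, 18.2 and 39.7 in the 4 libraries at 0 h. Their mean, taken on the log2(signal + 7.63) scale that all differences use, was 54.7 (SD 1.15 on the log2 scale, n = 4). Replicate 1 was the highest of the 4 and set the level that later libraries are compared with.

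The transcript was high at the earliest time sampled. At 0.25 h the 3 libraries read 206, 688 and 352, at 0.5 h 337, 247 and 904, and at 0.75 h 444, 497 and 561. By 1 h they stood at 711, 1011 and 653. Every library of these 4 times lay above the highest at 0 h, 12 of 12 in all. Among all 9520 tested probe sets, the same was true of 3.26, 4.28, 3.80 and 3.98% at these 4 times in order. The mean log2 difference from 0 h was 2.59 at 0.25 h, a 6.04-fold rise, and went through 2.79 and 3.02 to 3.65 at 1 h, 12.6-fold.

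Levels were highest between 1 and 6 h. The libraries read 584, 1043 and 821 at 2 h and 963, 1460.3 and 1153 at 4 h. At 4 h the mean signal was 1175 (SD 0.30 on the log2 scale, n = 3), 19.0-fold above 0 h, the highest of the 17 time means. At 5 h the values were 721, 269 and 646. Replicate 1 at 5 h has arrays lettered a and b, which read 749 and 694. The labels do not explain the letters, so both were taken as 1 sample and their average is used. At 5.5 h the libraries read 1067, 1002 and 638 and at 6 h 696, 979 and 1042. All 15 of these libraries lay above the highest at 0 h, a pattern shown by 8.61, 12.3, 6.62, 8.99 and 9.19% of the tested probe sets at these times in order. Only 5 h replicate 2 was under 500 in this stretch.

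A step down followed between 6 and 7 h. The 3 libraries at 7 h read 199, 315 and 240, a range that holds 5 h replicate 2 at 269. They all lay above the highest at 0 h (background 6.21%) and below the lowest at 6 h (share of probe sets not computed). At 8 h they were 342, 119 and 246, at 12 h 413, 72.5 and 184, and at 18 h 198, 149 and 121. From 8 h the groups overlapped with 0 h, while 6.69, 3.69 and 3.35% of the tested probe sets had every library above the highest at 0 h at 8, 12 and 18 h. Mean differences from 0 h went from 2.03 at 7 h through 1.84 and 1.58 to 1.36 at 18 h.

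At the last times 7 of 9 libraries lay within the range of untreated kidney, 1 above it and 1 below it. The libraries read 45.5, 39.6 and 29.6 at 30 h, 161, 125 and 6.79 at 48 h, and 30.5, 168 and 102 at 72 h. The differences from 0 h were -0.46, 0.14 and 0.53. None of these groups lay wholly above 0 h, as 2.62, 6.24 and 4.30% of the tested probe sets did. All 3 libraries at 30 h lay below the lowest at 18 h (share of probe sets not computed), and 48 h replicate 3, at 6.79, was the lowest of all libraries.

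**Figure D1:**
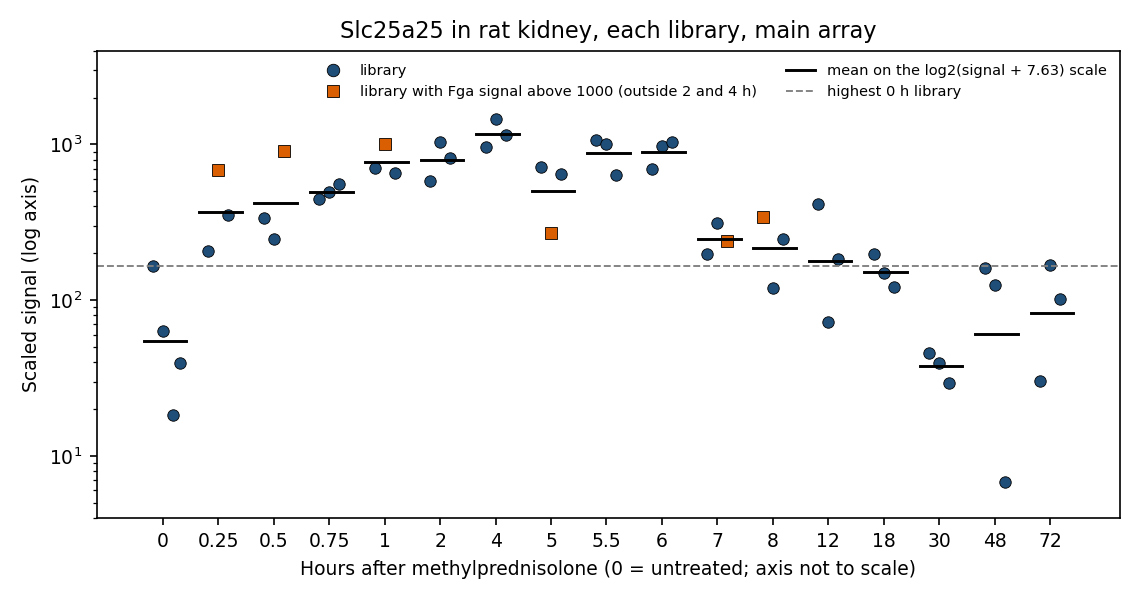
Slc25a25 signal of each library of the main array (log axis) by hours after methylprednisolone, with the mean of each time as a black bar and the highest 0 h library as a dashed line. All libraries from 0.25 to 7 h lie above the line at 167, and at 30 h all 3 lie below it, between 29.6 and 45.5; orange squares are libraries outside 2 and 4 h with an Fga signal above 1000.

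Over the windows used for the tests of other genes, Slc25a25 was 3.01 ± 0.45 (SE) above 0 h on the log2 scale at 0.25 to 1 h (12 libraries), 3.96 ± 0.51 at 2 to 4 h (6 libraries) and 2.92 ± 0.44 at 5 to 8 h (15 libraries). It was 1.47 ± 0.51 above at 12 to 18 h, with 3 of 6 libraries over the highest at 0 h, and 0.07 ± 0.47 at 30 to 72 h, with 1 of 9. All windows share the same 4 libraries at 0 h. In all, every library was above the highest at 0 h at 10 of the 16 times, 13 without 0 h replicate 1. In the order of the time means, 4 h came first, followed by 6, 5.5, 2, 1, 5, 0.75, 0.5, 0.25, 7, 8, 12, 18, 72, 48, 0 and 30 h. Of the 16 pairs of neighbours in that order, 0 had libraries that did not overlap, so neighbours do not differ beyond their spread. The SD of Slc25a25 between libraries of the same time, pooled over all times, was 0.84 on the log2 scale, at the 99.1th percentile of the tested probe sets, whose median was 0.26.

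Acute-phase transcripts differed between libraries of the same time. The fibrinogen chain gene Fga exceeded a signal of 1000 in 5 of the 6 libraries at 2 and 4 h, the window in which Slc25a25 was highest, and in 6 of the other 46. In 2 h replicate 2, the exception with an Fga signal of 523, Slc25a25 was the highest of its time at 1043. At 5.5 and 6 h the Slc25a25 means of 880 and 892 were above that of 794 at 2 h. Fga read 133, 86.7 and 120 at 5.5 h and 778, 84.1 and 69.8 at 6 h. The 6 libraries outside 2 and 4 h with Fga above 1000 differed in Slc25a25. It was the highest of its time in 0.25 h replicate 2 at 688, 0.5 h replicate 3 at 904, 1 h replicate 2 at 1011 and 8 h replicate 1 at 342. In 5 h replicate 2, with the highest Fga signal of the 6 at 4459, Slc25a25 was the lowest of its time at 269, and in 7 h replicate 3 it was between the others at 240. Without these 6 libraries the difference from 0 h was 2.72 at 0.25 to 1 h and 2.94 at 5 to 8 h, against 3.01 and 2.92 with them. All 6 lie outside 2 and 4 h, so leaving them out does not bear on the level in that window. The part of these libraries' other features in the spread was not tested.

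The labelled tissue was checked against its markers. Umod, Slc34a1, Aqp1, Lrp2 and Cubn, markers of kidney tubules, had median signals of 3134, 4048, 2477, 2348 and 1970, and the summed signal of 10 kidney markers ranged from 11531 to 22000 over the libraries, with 15267 to 17913 at 0 h. The summed signal of 10 macrophage and neutrophil markers was 1401 to 1746 at 0 h, 1771 to 3217 at 0.25 to 1 h, 2624 to 3168 at 2 to 4 h, 1920 to 3686 at 5 to 8 h, 1850 to 3237 at 12 to 18 h and 2055 to 3190 at 30 to 72 h. Of the 8 tested, 0 rose at 0.25 to 1 h, 6 at 2 to 4 h (background 5.17% of probe sets), 5 at 5 to 8 h (4.98%), 1 at 12 to 18 h (0.284%) and 0 at 30 to 72 h, and S100a9 among them had a mean of 11.6 at 0 h, under the filter level. The summed signal of 8 liver and acute-phase markers was 231 to 433 at 0 h, 267 to 2835 at 0.25 to 1 h, 2653 to 3602 at 2 to 4 h, 301 to 8964 at 5 to 8 h, 301 to 507 at 12 to 18 h and 255 to 395 at 30 to 72 h. Every library at 2 and 4 h was thus above all at 0 h, in the window in which Slc25a25 was highest. Of the 4 tested, the fibrinogen chain genes Fga and Fgg rose at 2 to 4 h (background 5.17%), by 5.27 ± 1.16 and 4.76 ± 1.19 (limma adjusted p = 0.0016 and 0.0058), and 0 of the 4 passed with limma in the other windows. The means of Fga and Fgg at 0 h, 36.3 and 19.0, lie under the filter level. They entered the test only through libraries in which they were higher, so these calls are a description and no support. The liver genes Alb and Apoa1 had median signals of 39.4 and 5.28, under the filter level of 52.3. Skeletal muscle markers summed to 84.9 to 228 and adrenal markers to 109 to 282 over all libraries, and 1 gene of each list passed the filter, Ckm of muscle with a median signal of 76.1 and Cyp11a1 of adrenal with 104. The others of both lists had lower medians, Tnni2 30.7 and Acta1 11.8 among them, and Cyp21a1 32.1, Cyp11b1 16.4 and Cyp17a1 5.62. Adipose markers summed to 75.1 to 103 at 0 h and reached 531 at 2 to 4 h and 359 at 5 to 8 h, and Fabp4 alone reached 345 in 1 library. The part of these cells in the rise of Slc25a25 was not tested. In whole kidney, fewer cells of a type and less RNA per cell cannot be told apart.

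Slc25a23 was the only other ATP-Mg carrier with a named probe set, since none is listed for Slc25a24 or Slc25a41. It belongs to the same calcium-regulated group. At 0 h its libraries read 303, 300 and 303 with replicate 4 at 605. At 2 h they read 483, 346 and 444 and at 4 h 472, 418 and 389, all between the others and replicate 4 at 0 h. The lowest value over all times was 178, at 0.5 h, and the time medians ran from 242 at 6 h to 491 at 30 h. Differences from 0 h over the 5 windows were -0.22, 0.23, -0.30, -0.10 and 0.34, and none passed the threshold (limma adjusted p = 0.901, 0.539, 0.359, 0.991 and 0.921). On the second array Slc25a23 read 132 to 323 at 0 h and 190, 39.2 and 143 at 2 h, a difference of -1.10 ± 0.47 that did not pass (limma adjusted p = 0.142), and at 6 h it was -0.14. With 1 library left out the difference at 2 h ran from -1.53 to -0.44. The second array has no probe set listed for Slc25a25.

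The other mitochondrial carriers moved in both directions. Of 52 listed carrier genes, 35 had a probe set with 1 symbol and 28 besides Slc25a25 passed the filter on dim values, a mean log2 level at or above the 40th percentile. At 0.25 to 1 h 0 of the 28 passed the test in either direction with limma (background 0.620% higher and 0.0420% lower, with 6.66% of probe sets under 0.05 before adjustment). At 2 to 4 h 3 rose and 2 fell (background 5.17% and 4.80%), and at 5 to 8 h 6 rose and 3 fell (4.98% and 4.73%). At 12 to 18 h and at 30 to 72 h 0 of the 28 passed with limma (background 0.284% and 0% higher, 0.105% and 0% lower, and 5.71% and 5.43% under 0.05 before adjustment). The median difference of the 28 was -0.08 at 2 to 4 h and -0.01 at 5 to 8 h, against -0.07 and -0.03 over all tested probe sets. A test over all times, the moderated F test, called 13 of the 28 (background 16.1%). At 5 to 8 h the largest of their differences was 1.12, that of Slc25a34. Slc25a34 is counted as risen in both windows, although its mean at 0 h, 36.9, lies under the filter level of 52.3. It entered the test only through libraries in which it was higher, so its part in the counts is a description and no support. The count at 2 to 4 h was 3 without 4 h replicate 2, 8 without 5 h replicate 2 or 7 h replicate 3, and 10 without the 6 libraries high in Fga. At 5 to 8 h it was 5 without 0 h replicate 1, 2 or 3.

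Of 7 carriers of adenine nucleotides, phosphate and cofactors, 1 rose and 1 fell in each of these windows (background 5.17% and 4.80%, then 4.98% and 4.73%), and the F test called 3 (16.1%). Slc25a33, a pyrimidine nucleotide carrier, read 62.4, 72.2, 61.6 and 71.3 at 0 h, 150, 244 and 156 at 2 h and 184, 350 and 254 at 4 h. The groups did not overlap, and 8.61% and 12.3% of the tested probe sets had every library above the highest at 0 h at 2 and 4 h. It rose by 1.57 ± 0.26 at 2 to 4 h (limma adjusted p = 4.7e-05), a later start than that of Slc25a25: its difference at 0.25 to 1 h was -0.01, where 0.5 h replicates spread from 17.9 to 90.5. At 5 to 8 h it rose by 0.80, a call lost without 0 h replicate 1 or 3 (largest adjusted p 0.0732). Slc25a36, also a carrier of pyrimidine nucleotides, read 395 to 514 at 0 h and 260 to 371 at 2 and 4 h, and fell by 0.48 and by 0.44. At 2 to 4 h the call depended on each of 5 libraries, namely 0 h replicates 2, 3 and 4, 2 h replicate 1 and 4 h replicate 2 (adjusted p up to 0.0921 when 1 was left out). At 5 to 8 h it was lost without 0 h replicate 2 or 3 (up to 0.101). The ADP/ATP carriers Slc25a4 and Slc25a5 stood at -0.13 and -0.09 at 2 to 4 h (adjusted p = 0.541 and 0.651) and the phosphate carrier Slc25a3 at -0.17 (0.385).

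**Figure D2:**
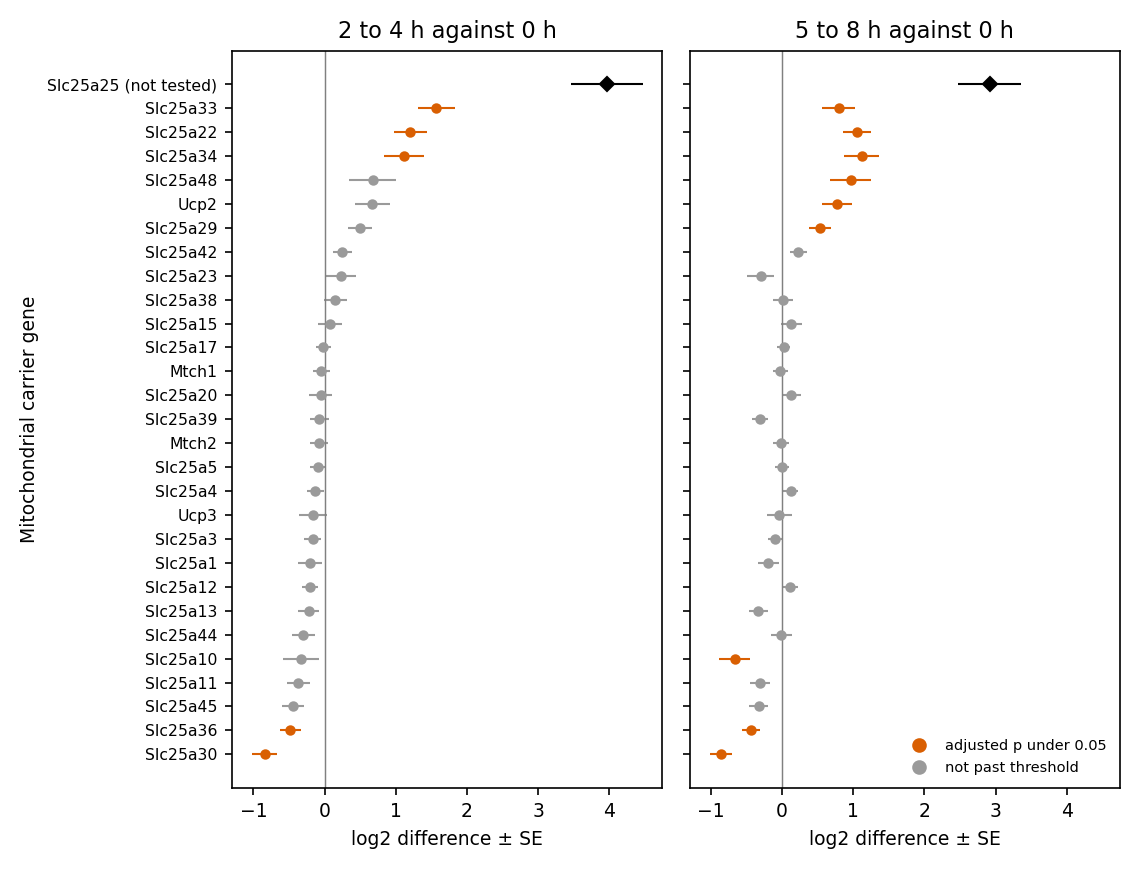
Log2 difference from 0 h with its standard error for the 28 tested mitochondrial carriers and Slc25a25, at 2 to 4 h (left) and 5 to 8 h (right), ordered by the left panel; orange points passed an adjusted p of 0.05. Slc25a25 lies at 3.96 and 2.92, and the largest of the tested carriers, Slc25a33, at 1.57 on the left.

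Of 4 tested carriers of di- and tricarboxylates, 1 rose at 2 to 4 h (background 5.17%), and 1 rose and 1 fell at 5 to 8 h (4.98% and 4.73%). The F test called 3 of the 4 (16.1%). Slc25a34, an orphan carrier, read 47.6, 41.0, 29.1 and 32.3 at 0 h and 66.3 to 122 at 2 and 4 h, without overlap (background 8.61% at 2 h and 12.3% at 4 h). It rose by 1.12 ± 0.28 at 2 to 4 h and by 1.12 ± 0.25 at 5 to 8 h (limma adjusted p = 0.0062 and 0.0015). Its mean at 0 h, 36.9, lies under the filter level of 52.3, so it entered the test only through the libraries in which it was higher. Slc25a10, the dicarboxylate carrier, fell by 0.67 at 5 to 8 h (adjusted p = 0.0475), a call that depended on each of 32 libraries (up to 0.211, without 0 h replicate 4). Slc25a1, the citrate carrier, stood at -0.20 at 2 to 4 h and at -0.19 at 5 to 8 h.

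Of 10 tested carriers of amino acids and carnitine, 1 rose at 2 to 4 h (background 5.17%) and 3 rose at 5 to 8 h (4.98%). The F test called 5 of the 10 (16.1%). Slc25a22, a glutamate carrier, read 150, 106, 137 and 133 at 0 h, 295, 335 and 367 at 2 h and 322, 248 and 308 at 4 h, without overlap (background 8.61% at 2 h and 12.3% at 4 h). It rose by 1.20 ± 0.23 (2.8e-04) and at 5 to 8 h by 1.05 ± 0.20 (2.4e-04, both limma adjusted p). Slc25a29, a carrier of basic amino acids, rose by 0.53 at 5 to 8 h, a call lost without 0 h replicate 1 or 4 (largest adjusted p 0.0712). Slc25a48 rose by 0.96, with 0.62 for its other probe set, and its call was lost without 0 h replicate 1, 2 or 4 (up to 0.096).

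Of 3 tested uncoupling proteins and kin, of which the F test called 1 (background 16.1%), Slc25a30 fell in both windows. It read 862, 621, 636 and 561 at 0 h, 308, 459 and 388 at 2 h and 324, 405 and 331 at 4 h, and the groups did not overlap (share of probe sets with every library below 0 h not computed). It fell by 0.84 ± 0.18 and by 0.86 ± 0.16 (limma adjusted p = 0.0013 and 1.6e-04). On the second array it read 328 to 548 at 0 h and 168, 28.3 and 185 at 2 h, and fell by 2.14 ± 0.55 (limma adjusted p = 0.033), the single call among the 15 carriers tested there at 2 h (background 4.98% lower and 4.82% higher) by their brightest probe sets. Of the dimmer probe sets, 2 for Mtch2, a carrier homologue of the outer membrane, were also lower (-1.08 and -1.57, limma adjusted p = 0.0306 and 0.0417), while its brightest stood at -0.83 (0.11). The Slc25a30 call was lost without 0 h replicate 2, 3 or 4 (largest adjusted p 0.084). With 1 library left out its difference at 2 h ran from -2.59 to -1.31. Its lowest library, 2 h replicate 2, was also the lowest for Slc25a23, at 39.2. At 6 h 0 of the 15 passed with limma (background 1.56% higher and 0.782% lower, with 10.7% under 0.05 before adjustment). Ucp2, an uncoupling protein, rose by 0.77 at 5 to 8 h on the main array, a call lost without 0 h replicate 1, 2 or 3 (largest adjusted p 0.102). Of the 3 tested carriers of iron, glutathione and other loads, 0 passed in any window with limma (background 5.17% higher and 4.80% lower at 2 to 4 h). The F test called 1 of these 3 (background 16.1%).

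Genes that act beside an ATP-Mg carrier were counted against the same background, 5.17% higher and 4.80% lower at 2 to 4 h on the main array. Of 9 tested genes of mitochondrial calcium uptake and release, Mcur1, a regulator of the calcium uniporter, fell by 0.66 ± 0.15 at 2 to 4 h (limma adjusted p = 0.0031), from 307 to 322 at 0 h to 175 to 213 at 2 and 4 h. The others of that list did not pass in any window, with Vdac1 at -0.21, Smdt1 at -0.18 and Vdac2 at -0.05. The F test called 0 of the 9, Mcur1 included (background 16.1%). Of 13 tested ATP synthase subunits and adenylate kinases, 0 passed in any of the 5 windows with limma, and the F test called 1, Atp5f1d (adjusted p = 0.0069, background 16.1%). Of 3 tested regulators of mitochondrial biogenesis, Esrra, Polrmt and Tfam, 0 passed, with differences of 0.13, -0.24 and 0.05 at 2 to 4 h. On the second array Esrra, the 1 tested regulator, and Atp5f1a, 1 of 12 tested subunits and kinases, fell at 2 h (background 4.98%), by 1.23 and 0.68 (limma adjusted p = 0.0357 and 0.0315).

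The time course of Slc25a25 was then set beside those of 20 genes known to be induced by glucocorticoids, 18 of them tested. Of the 18, 13 rose at 0.25 to 1 h (background 0.620%), 15 at 2 to 4 h (5.17%), 16 at 5 to 8 h (4.98%), 1 at 12 to 18 h (0.284%) and 0 at 30 to 72 h (0%). At 0 h 5 of the 18, Per1, Rasd1, Sds, Cebpb and Nfkbia, lay under the filter level, at 13.4 to 48.0, and entered only through the times when they were high, so the counts are a description of the list and no support for it. At 0.25 h the mean log2 difference of Slc25a25, 2.59, lay beside that of Zfp36, which destabilises cytokine mRNAs, at 2.60, that of the GTPase Rasd1 at 2.78 and that of Nfkbia, an inhibitor of NF-kappaB, at 3.04. The kinase Sgk1 stood at 1.66, Ddit4, an inhibitor of mTORC1, at 1.22 and the receptor cochaperone Fkbp5 at 0.33. Zfp36 and Nfkbia had their largest difference at 0.5 h, 3.21 and 4.49. Slc25a25 had it at 4 h, as did Fkbp5 (3.45), Ddit4 (4.02), Per1 (3.29), Cebpb (3.51) and Klf9 (1.48). At 7 h Fkbp5 still stood at 3.18 and Slc25a25 at 2.03. At 12 h Slc25a25 was at 1.58, Sds, a serine dehydratase, at 1.35, Sgk1 at 1.27, Nfkbia at 1.00 and Cebpb at 0.81, while Fkbp5 was at 0.38, Ddit4 at 0.19 and Zfp36 at 0.18. Sgk1 was the 1 member that rose at 12 to 18 h, by 1.06 ± 0.19 (limma adjusted p = 0.0015). Differences between these genes were not tested.

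**Figure D3:**
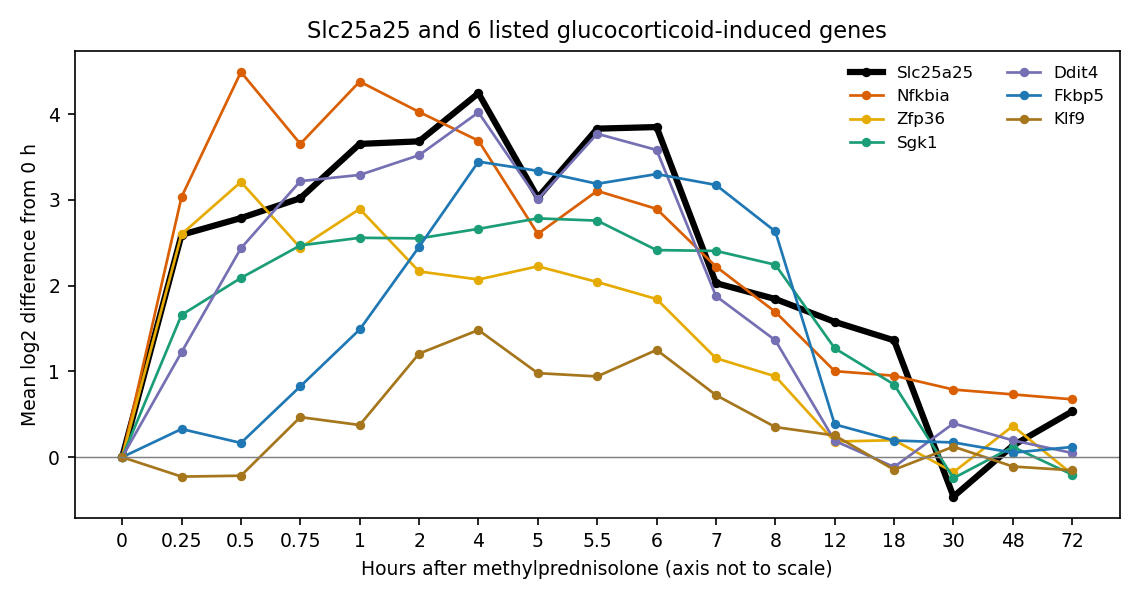
Mean log2 difference from 0 h at each time for Slc25a25 (thick black) and 6 listed glucocorticoid-induced genes, 3 libraries a time against 4. Slc25a25 stands at 2.59 at 0.25 h beside Zfp36 at 2.60 and is highest at 4 h, at 4.25, while Fkbp5 stands at 0.33 at 0.25 h and 3.45 at 4 h.

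The genes whose time course was most like that of Slc25a25 were named by the Pearson r of the mean log2 level over the 17 times, among 8068 tested probe sets with 1 symbol. Points that share the 0 h libraries and the same arrays are not independent, so r is a description. The first was Ccn2, a matricellular growth factor, with r = 0.959 (0.840 over the 52 libraries). It read 235, 401, 382 and 500 at 0 h, 927, 612 and 1851 at 0.25 h, and 2971 to 4137 at 4 h, and like Slc25a25 it was highest at 4 h. Next were Vmp1, a membrane protein of autophagy, at 0.944, Errfi1, an inhibitor of the EGF receptor, at 0.935, Sgk1 at 0.928 and Resf1 at 0.925. Cebpb, Dusp1, Rin2 and Pim3 followed at 0.924 each and Ddit4 at 0.923. In all 15 probe sets had r above 0.9. The deviations of single libraries from their time means were less alike: for Ccn2 r was -0.10, for Errfi1 0.34 and for Ddit4 0.27. Of the 10 genes, 5 were also among the top 10 by Spearman rho and 6 among the top 10 by r over the 52 libraries. All 10 matched a promoter window. Dusp1 is the 1 of 10 with TGACGTCA (1.91% of all windows), and 4 of 10, Vmp1, Errfi1, Cebpb and Dusp1, hold TGACG (22.0%). The shorter glucocorticoid form AGAACA is in 1 of 10, Vmp1 (20.1% of all windows), and the full element in 0 (0.0073%). CCAAT is in 3 of 10, Errfi1, Resf1 and Ddit4 (37.7%).

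The genes beside Slc25a25 on the chromosome were followed in the order of RefSeq, 10 on each side. Of these 20, 16 had a tested probe set. Lcn2, whose secreted product binds siderophores and is known as an injury marker of the kidney, lies 2 genes away. It read 80.5, 47.2, 24.2 and 58.0 at 0 h, 1410.0, 390 and 1540.0 at 2 h and 1733, 1855 and 2053 at 4 h, and rose by 4.57 ± 0.83 at 2 to 4 h and by 3.20 ± 0.72 at 5 to 8 h (limma adjusted p = 1.4e-04 and 0.0021). Its mean at 0 h, 48.7, is under the filter level, so it entered the test through its later libraries. At 0.25 to 1 h, where Slc25a25 stood at 3.01, Lcn2 was at 1.75 ± 0.74 and did not pass (adjusted p = 0.579). The 3 libraries of this window that were high in Fga read 805 (0.25 h), 694 (0.5 h) and 1209 (1 h) for Lcn2. In 5 h replicate 2, where Slc25a25 was lowest of its time, Lcn2 read 3970.4 against 198 and 213.

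Ptges2, a prostaglandin E synthase and the nearest measured gene, lies between Lcn2 and Slc25a25 and stood at -0.03 at 2 to 4 h. The 15 neighbours other than Lcn2 ranged from -0.62 to 0.56 in that window over their probe sets, and the lowest adjusted p was 0.0546. At 5 to 8 h 1 of them passed (background 4.98% higher and 4.73% lower). This was St6galnac6, a sialyltransferase 7 genes away on the other side, at -0.57 (limma adjusted p = 0.0418). The moderated F test over all times did not call it (adjusted p = 0.316).

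**Figure D4:**
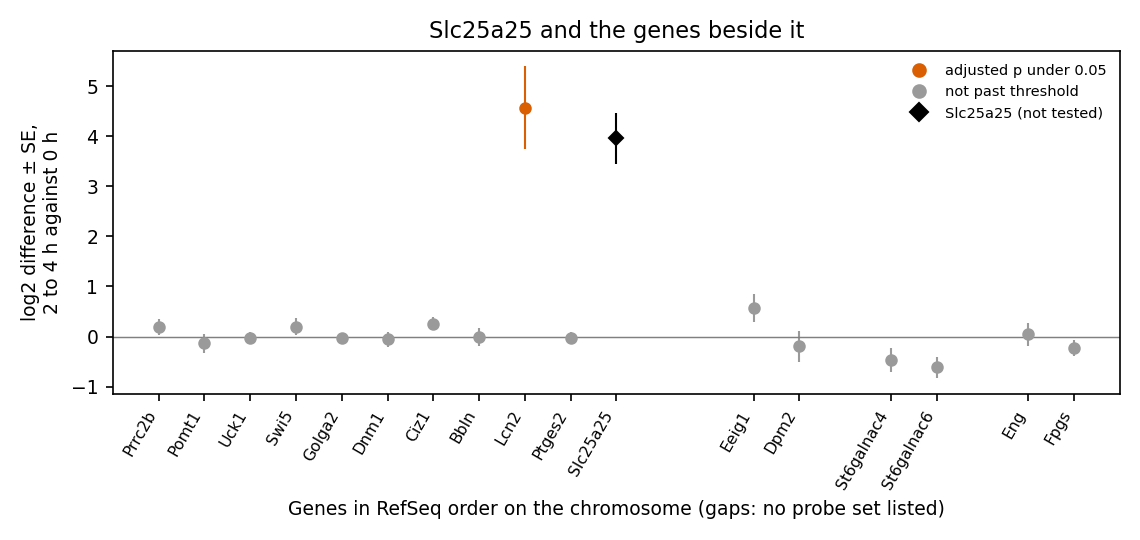
Log2 difference of 2 to 4 h from 0 h with its standard error for Slc25a25 and the 16 measured genes within 10 steps on either side in RefSeq order, 1 probe set a gene. Lcn2 at 4.57 and Slc25a25 at 3.96 stand high, and Ptges2 between them lies at -0.03.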

How the data were processed

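Total RNA of rat kidney was hybridised to 2 Affymetrix array types, the main one with 53 arrays (52 libraries) and the second with 10. The deposited values are linear intensities per probe set that the authors had scaled per array: the mean of each array without its lowest and highest 2% was 150.0 for the main type, 150.2 for the second, tested on the deposited intensity values. Array medians ranged from 65.6 to 83.3 and from 38.8 to 45.0. Which algorithm summarised the probes is not given in the labels read here, the values were not centred per gene, and the number of arrays limits the precision. Both tables were scaled separately, so tests stayed within 1 table.

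Values were taken as log2(intensity + 10th percentile of the table), a pseudocount of 7.63 for the main type (3.56 for the second), which understates changes of dim probe sets. Control probe sets (57 and 59) were dropped, and probe sets at or above the 40th percentile of the mean log2 level were tested, 9520 and 5244. That level is a signal of 52.3 and 25.3. The 2 arrays of 5 h replicate 1 were taken as 1 sample and entered as their average. Libraries of one time correlated with r of 0.921 to 0.974 across probe sets, and no columns were identical. Fits used limma 3.58.1 in R 4.3.3 (1 fit of all 17 times, mean-variance trend, Benjamini-Hochberg adjustment at 0.05), with the moderated F test and 5 windows, each the unweighted mean of its times, against 0 h. The script was tested on simulated data. Slc25a25 itself was not tested. The main fit did not treat equal sample numbers at different times as pairs, and whether they share a source was not settled. Whether equal numbers on the 2 array types mark the same RNA was not tested, so the second array may not be independent of the main one.

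Gene symbols are those of GEO's platform table, brought up to date by gene ID from RefSeq's GRCr8 table, which served for names and gene order only. For the main type, 12783 probe sets carried a single symbol, 312 several and 2771 none listed. Named genes were Slc25a25, other ATP-Mg carriers, list members past the threshold with up to 4 that were not (brightest probe set), the 10 genes with the highest r to Slc25a25 and 10 genes on each side of it. Slc25a25, the windows and the 16 gene lists were chosen with earlier results of these data known. Alternatives changed the pseudocount, normalization, filter, block, weights, fitted times and libraries.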

Additional observations from a re-analysis of the deposited data

Results flagged for a closer look

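In 68 groups of 4 libraries at 0 h (1 probe set of each named gene on each array type), the highest or lowest library was checked for its gap to the nearest of the others, relative to the range of the group. In 7 of them the gap was larger than chance allows in about 1 of 20 groups. Among 68 groups some such gaps can arise by chance, and groups of 1 array type share the same 4 libraries. Slc25a23 read 605 in 0 h replicate 4 on the main array against 300 to 303 in the others, so its differences from 0 h depend on that library. Without it they were 0.47 at 2 to 4 h and -0.05 at 5 to 8 h, and neither passed. Slc25a5 read 4307 and Slc25a3 3392 in 0 h replicate 1 of the main array, against 3213 to 3375 and 2647 to 2745 in the others. Slc25a42 read 202 in 0 h replicate 2 against 174 to 178, and Per1, a clock gene, read 44.7 in the same library against 12.9 to 13.2. On the second array Slc25a10 read 808 in 0 h replicate 1 against 1363 to 1395, and Nfkbia 71.8 in 0 h replicate 3 against 111 to 121. On the main array Slc25a10 was also lowest in 0 h replicate 1, at 580 against 962 to 1180. Slc25a25 itself was not among the 7, although its 4 libraries at 0 h ran from 18.2 to 167.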

How the results depend on the processing

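The differences of Slc25a25 from 0 h kept their direction under every setting tried at 0.25 to 1, 2 to 4, 5 to 8 and 12 to 18 h, while that of 30 to 72 h, 0.07, lay between -0.35 (with b- and c-lettered arrays left out) and 0.08 over the settings. Leaving out 1 library at a time gave 2.59 to 3.51, 3.54 to 4.46, 2.49 to 3.41, 1.05 to 1.96 and -0.35 to 0.56 in the 5 windows, each extreme without a 0 h library, and 10 to 13 times with every library above 0 h. With 4 times the pseudocount the first 3 windows stood at 2.57, 3.48 and 2.49. No result changed its direction past the threshold under any setting. Of 220 values of counts and of Slc25a25 under the settings other than leaving out a library, 197 stayed within a wide limit. That limit was 1.5-fold for a count and the SD of 0.84 for Slc25a25. A fall from 949 to 637 probe sets changed at 2 to 4 h stayed within it. The cause of the changes beyond the limit was not tested. With array weights the probe sets changed were 146 at 0.25 to 1 h, 2403 at 2 to 4 h, 65 at 12 to 18 h, 1 at 30 to 72 h, 4607 by the F test and 254 on the second array at 6 h, and the carriers changed 13 at 2 to 4 h, 22 by the F test and 1 on the second array at 6 h. With only the window and 0 h in the fit the carriers changed were 10 at 2 to 4 h and 3 at 5 to 8 h (0 at 2 h and 1 at 6 h on the second array), and the probe sets 21 at 12 to 18 h, 338 at 2 h and 217 at 6 h on the second array. With b- and c-lettered arrays left out the F test called 911 probe sets and 8 carriers. Without the 6 libraries high in Fga, a setting chosen after seeing the data, 10 carriers changed at 2 to 4 h, and with quantile normalization 1 carrier at 6 h on the second array. With the sample number as a replicate block 35 probe sets changed at 0.25 to 1 h, against 63 without it, and 2 and 1 carriers at 2 h and 6 h on the second array. Whether the numbers pair samples of different times on the main array was not settled. Over 408 pairs of the same number the deviations from the time means correlated with a median r of 0.06, from -0.53 to 0.49. In 153 of the 408 pairs r was over 0.1, and over pairs of different numbers the median r was -0.02. Leaving out 1 library at a time, the probe sets changed were 36 to 77, 642 to 1121, 637 to 1033, 19 to 41 and 0 to 1 in the 5 windows and 1324 to 1723 by the F test, the carriers 3 to 8 at 2 to 4 h, 5 to 10 at 5 to 8 h and 10 to 15 by the F test, and on the second array 235 to 740 and 69 to 215 probe sets and 0 to 3 and 0 to 1 carriers at 2 and 6 h. Of single carriers, 52 of 1078 values with 1 library left out lost the call and 9 gained it. The 1078 include values with no call when all libraries were used, those of Slc25a23 among them, which could not lose one. The share lost among values that had a call is therefore larger. Dim levels limit what can be read.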
